A study of Danio rerio with 4 samples.

Results

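The proximal part of zebrafish chromosome 4 was taken as all intervals of the deposited accessibility table that lie on chromosome 4 and start below 28 Mb. There were 1173 such intervals among the 54036 of the table, and 437 of them were narrow, that is, at most 1000 bp long. Positions alone chose these members among the intervals of the table. The intervals themselves are peaks that the authors called from the reads of each condition. Chromatin accessibility was measured by bulk ATAC-seq in noncardiomyocytes (nonCMs, the cells of the heart that are not heart muscle) of adult Danio rerio hearts at 7 days. The 2 Treatment libraries carry the labels wild type and amputation, and the 2 WT libraries carry the label wild type with no treatment named. The label on both groups places the cells in the injury area. The study's text, in contrast, describes hearts after amputation from tnfα mutant and wild-type fish. Treatment and WT are therefore used here as label names, and genotype and injury cannot be told apart from them. Neither source says how many fish were pooled in a library, so that p-values measure the spread between these 4 libraries, which may be technical.

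In ATAC-seq, the Tn5 transposase cuts DNA where it is not packed in nucleosomes, and short stretches with many cuts usually mark promoters and enhancers. Chromosome 4 is unusual in zebrafish. Its long arm is known to be rich in repeats and heterochromatic and has been tied to sex determination in wild strains, whereas the part near the start of the sequence carries ordinary protein-coding genes. The name gene-rich was not checked against the data, because no gene positions on GRCz11, the build of the files, were used. Intervals are therefore given by position and not assigned to genes, and the cell types were not checked against marker genes.

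Members held 348809 and 395262 reads in Treatment replicates 1 and 2, and 381066 and 397629 reads in WT replicates 1 and 2. The whole table held between 14736856 and 16822284 reads per library. The share of all counts that fell in members was 2.38% ± 0.014 in Treatment and 2.36% ± 0.00067 in WT (SD, n = 2 each). The exact two-sided permutation p was 0.333, the smallest that 2 libraries against 2 allow. Proximal chromosome 4 as a whole thus took nearly the same share of reads in every library. Replicates differed by more than sampling noise over the tested members, with a chi-square statistic per degree of freedom of 2.50 for the Treatment pair and 3.05 for the WT pair, so that neither pair was counted as 1 library. This statistic does not tell whether the spread is technical or biological.

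To describe how accessible sites are laid out, intervals were first counted by width. The 437 narrow members had a median width of 433 bp (quartiles 317 and 602), covered 0.202 Mb and gave 15.6 narrow intervals per Mb. The other 736 members were 1001 to 327723 bp long and covered 17.4 Mb, or 62.1% of the stretch. Read density separated the width classes: narrow members had a median of 179 reads per kb and library (quartiles 139 and 227), against 20.2 in members over 1000 bp (quartiles 15.02 and 29.1). Within narrow members the density hardly changed with width, at 186, 182 and 168 reads per kb for members up to 300 bp, of 301 to 500 bp and of 501 to 1000 bp. It was 30.7 in members of 1001 to 5000 bp and 18.2 in those above 50000 bp. Widths come from peak calling on the same reads, and its part in these differences of density was not tested. The 83 members above 50000 bp took 45.7% of all member reads, and the 134 of 20001 to 50000 bp took 19.96%.

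Contact with other intervals was common among narrow members. Of the 437, 217 (49.7%) touched another interval on both sides, 118 (27.0%) on 1 side and 102 (23.3%) on neither. Counting only neighbours over 1000 bp, 149 (34.1%) touched one on both sides, 138 (31.6%) on 1 side and 150 (34.3%) on neither. For contact with an interval of any width, the shares on the other 24 chromosomes were 49.4% on both sides, 23.4% on 1 side and 27.2% on neither. On the distal part of chromosome 4 (start at or above 28 Mb), in contrast, 83.4% of narrow intervals touched no other interval. Density in the members did not follow contact closely, with medians of 180 reads per kb for contact on both sides, 192 for contact on 1 side and 166 for none.

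The distal part differed from the proximal part less in how many narrow intervals it held than in what was in them. It had 649 narrow intervals, or 13.0 per Mb, and their median count was 1.25 reads per library, against 72.5 in narrow members. Proximal narrow members passed the filter on low counts in 410 of 437 cases (93.8%), distal ones in 221 of 649 (34.1%), and those of the other chromosomes in 91.1%. All 4 libraries had 0 reads in 7 proximal (1.60%) and 206 distal (31.7%) narrow intervals. Distal narrow intervals were shorter, with a median of 164 bp, and 179 of them had a width of exactly 107 bp, whereas the commonest width among narrow members was 117 bp, found 5 times. These counts compare layouts from peaks called over both replicates, with 1 value per part, so they carry no replicate error and no test.

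**Figure D1:**
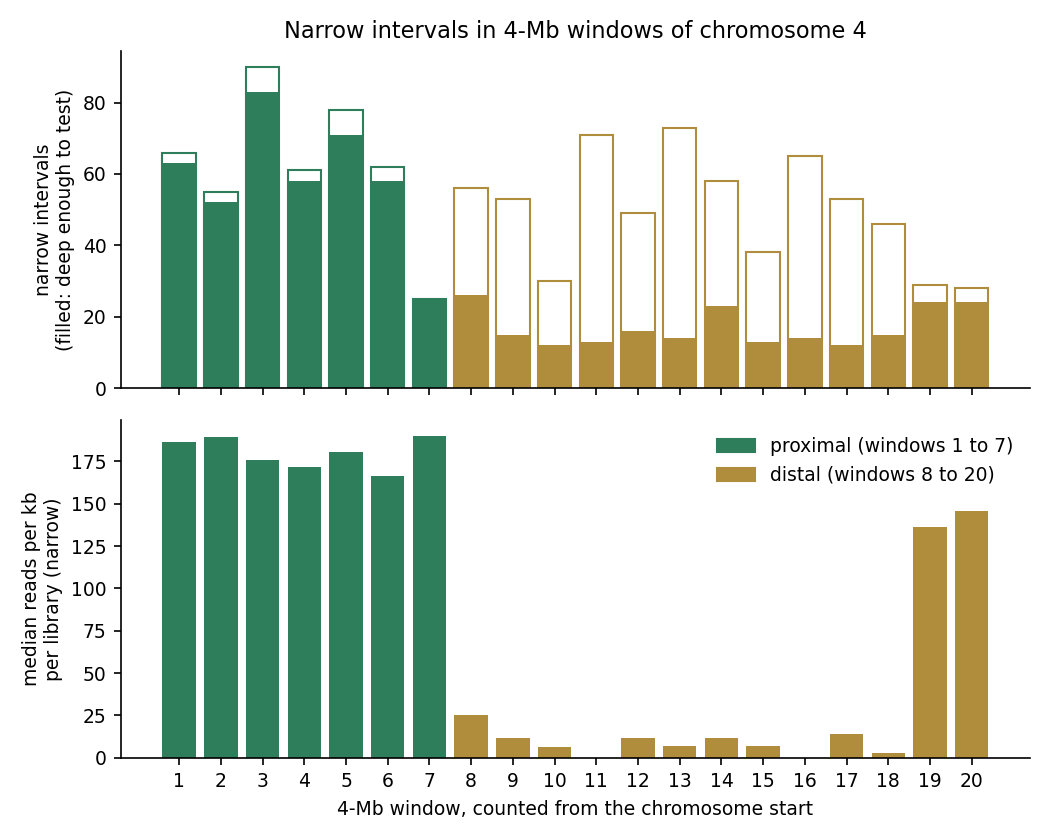
Narrow intervals in the 20 windows of 4 Mb along chromosome 4, with the number of narrow intervals in the upper panel (filled part: passed the filter on low counts) and their median reads per kb per library in the lower panel. Windows 1 to 7, the proximal part, hold 25 to 90 narrow intervals at medians of 167 to 190 reads per kb, whereas windows 8 to 18 have medians of 0 to 25.4 and windows 19 and 20 rise to 136 and 146.

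Along the stretch, narrow members were most frequent in the window from 8 to 12 Mb, with 90, and least frequent from 24 to 28 Mb, with 25. The other 5 windows of 4 Mb held 55 to 78. In windows of 1 Mb the number ran from 3 (27 to 28 Mb) to 33 (11 to 12 Mb), with a median of 12.5. Read density did not follow number. The median of the sparsest window, 190 reads per kb, was the highest of the 7 and that of the densest window was 176. The 33 narrow members from 11 to 12 Mb were spaced by a median of 9238 bp, and 3 of the gaps between them were 0.

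The limit of 28 Mb did not coincide with the largest change along the chromosome. The last 2 Mb inside it held 7 narrow members with a median of 214 reads per kb, and the next 2 Mb outside it held 28 narrow intervals with 147 reads per kb. From 30 to 32 Mb, 28 narrow intervals had a median of 6.13 reads per kb, and 5 of them passed the filter. The last narrow member inside, chr4:27898565-27899231, had 159 reads per kb, and the narrow interval just outside, chr4:28033792-28034620, had 174. The larger fall in density thus lay near 30 Mb and not at the limit used to choose the members. Between that limit and 30 Mb the median was already somewhat lower.

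Spacing was then measured from the end of a narrow interval to the start of the next. In the proximal part the median gap was 18056 bp (quartiles 3531 and 71230), and 171 of 436 gaps (39.2%) were at most 10 kb. On the distal part the median was 4479 bp, with quartiles further apart at 953 and 86067, and 58.3% of gaps were at most 10 kb. Gaps were counted over all narrow intervals, and 31.7% of the distal ones had 0 reads in every library. The distal values are therefore not the spacing of sites with reads. The other 24 chromosomes had a median of 10398 bp and 49.5% of gaps at most 10 kb. Gaps of 0, where 2 narrow intervals abut, made up 13.3% in the proximal part, 2.93% in the distal part and 19.7% on the other chromosomes. Gap sizes in the proximal part seldom repeated, and the commonest gap above 0 occurred 2 times. In the distal part a gap of exactly 423 bp occurred 28 times.

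**Figure D2:**
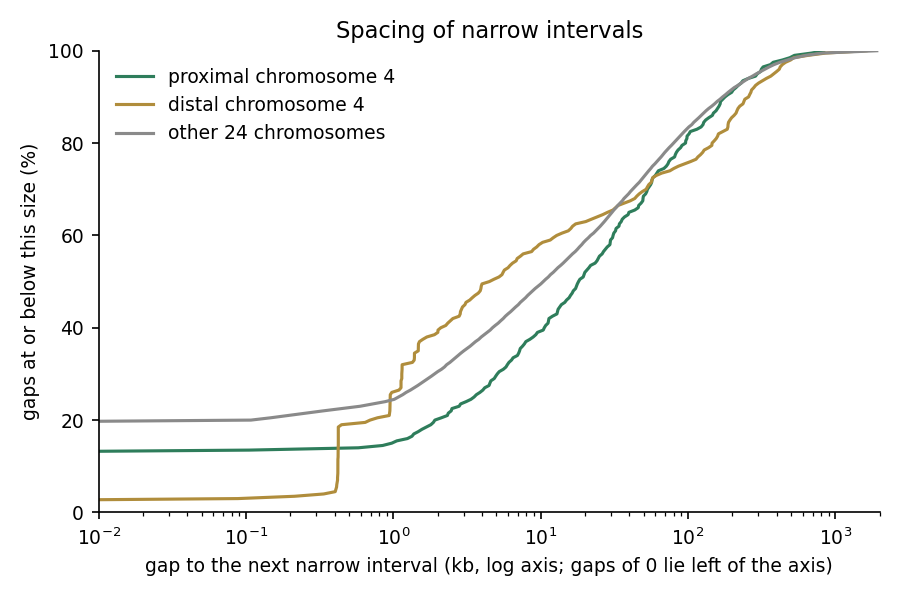
Cumulative share (%) of gaps between neighbouring narrow intervals against gap size in kb on a log axis, for proximal chromosome 4, distal chromosome 4 and the other 24 chromosomes. At 10 kb the proximal curve has reached 39.2%, below the distal curve (58.3%) and that of the other chromosomes (49.5%), and it has no step like the one of the distal curve near 423 bp.

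Gaps over 100 kb between narrow members numbered 80 (18.3%). The longest stretch without a narrow member was chr4:24137546-24971167, 833622 bp in which no member of any width lay. The next 2 were chr4:27130018-27898564 and chr4:3358801-4079110. These held 3 and 7 members over 1000 bp, which covered 56.9% and 53.0% of them. Pooled over the members in each stretch, the density was 15.04 and 14.99 reads per kb. The log2 fold changes of these members ran from -0.08 to 0.21 in the first stretch and from -0.27 to 0.10 in the other.

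Whether this layout is particular to chromosome 4 was examined by taking the first 28 Mb of every chromosome. The chromosomes fell into a group of 7 (1, 7, 10, 12, 15, 16 and 17) with 722 to 1146 narrow intervals in 28 Mb, and a group of 18 with 481 or fewer, to which chromosome 4 belongs. The grouping was made after the numbers were seen. How the peak sets were joined is not given in the sources used here, and its part in this split, and so in comparisons of number and spacing between chromosomes, was not tested. Chromosome 4 ranked 14 of 25 by number of narrow intervals and 14 of 25 by median gap. Without it, the second group held 301 to 481 narrow intervals per chromosome with median gaps of 8907 to 35293 bp, and the values of chromosome 4 lay inside both ranges. The 7 chromosomes with many had median gaps of 1453 to 2525 bp. Read density did not split the groups in the same way, at 160 to 188 reads per kb in the 17 chromosomes with few narrow intervals and 170 to 211 in those with many. In number, spacing and density the proximal part of chromosome 4 was thus within the range of 17 other chromosomes, whereas the distal part, at a median of 9.35 reads per kb, lay below the densities of all 25.

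The second question was whether accessibility of the members differed between Treatment and WT. A log2 fold change is the log2 of Treatment over WT, after scaling on all intervals by TMM (trimmed mean of M values). An interval was called at a Benjamini-Hochberg adjusted p under 0.05 over all 50494 tested intervals, by edgeR's quasi-likelihood test. Few members were called. Of 1135 tested members 4 were lower and 3 were higher in Treatment, together 0.617%, against 1.16% of all tested intervals of the series. The backgrounds by direction were 0.721% lower and 0.438% higher. Among narrow members 1 was lower and 2 were higher of 410 tested, with backgrounds of 0.812% and 0.313% over all narrow intervals. The distal part had 117 called of 809 tested (14.5%), and the other 24 chromosomes 461 of 48550 (0.950%). By share of called intervals in 28 Mb, chromosome 4 ranked 17 of 25. The counts of members moved in some refits without 1 of the libraries. Without WT replicate 1 there were 13 lower and 6 higher, of which 7 and 3 were narrow, and without either Treatment replicate there was 1 higher. DESeq2 called 2 lower and 1 higher. The backgrounds above belong to the main fit. No share over all intervals is given for these refits, so their counts cannot be read against one.

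Narrow members had mostly negative log2 fold changes, and longer members mostly positive ones. The median log2 fold change was -0.18 in narrow members (quartiles -0.39 and 0.04) and 0.04 in members over 1000 bp (quartiles -0.07 and 0.15). A negative value was found for 291 of 410 narrow members (71.0%) and for 276 of 725 longer ones (38.1%). Over all tested intervals of the series the shares were 63.9% of narrow and 41.7% of longer intervals, and 50.5% with both classes together. All intervals share the same scaling, so the signs of the narrow and the longer class depend on each other. Both Treatment libraries lay below both WT libraries in 149 narrow members (36.3%, background 31.5%) and above them in 46 (11.2%, background 13.5%). In those 17 chromosomes the shares of narrow intervals were 34.1% below and 11.3% above, and in those 7 they were 24.6% and 18.7%. In members over 1000 bp the shares were 14.9% below (background 14.8%) and 25.2% above (background 24%). At an unadjusted p under 0.05, 48 narrow members (11.7%) were lower and 13 (3.17%) higher, against backgrounds of 11.7% and 3.28%. The longer members gave 23 lower (3.17%) and 43 higher (5.93%), against 3.43% and 5.31%. The shares at an unadjusted p were close to the background.

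The level of narrow members in each library is the median log2 CPM (reads scaled to a common library size) after centring on the mean of each interval. It was -0.06 and -0.09 in Treatment replicates 1 and 2, and 0.02 and 0.15 in WT replicates 1 and 2. Both Treatment libraries lay below both WT libraries, but WT replicate 2 stood 0.13 above WT replicate 1, close to the difference between groups of -0.16. The exact two-sided permutation p was 0.333, the smallest possible. The median log2 fold change of narrow members became -0.09 without WT replicate 2, and -0.07 with TMM factors taken from narrow intervals only. Members over 1000 bp had 0.004 and 0.03 in Treatment and -0.0008 and -0.03 in WT, which is the opposite order. With the same scaling for both classes, this order is not a separate result. Narrow minus longer members gave -0.09 ± 0.05 in Treatment and 0.10 ± 0.11 in WT (SD, n = 2 each), a difference of -0.19 that became -0.12 without WT replicate 2 and -0.27 without WT replicate 1.

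**Figure D3:**
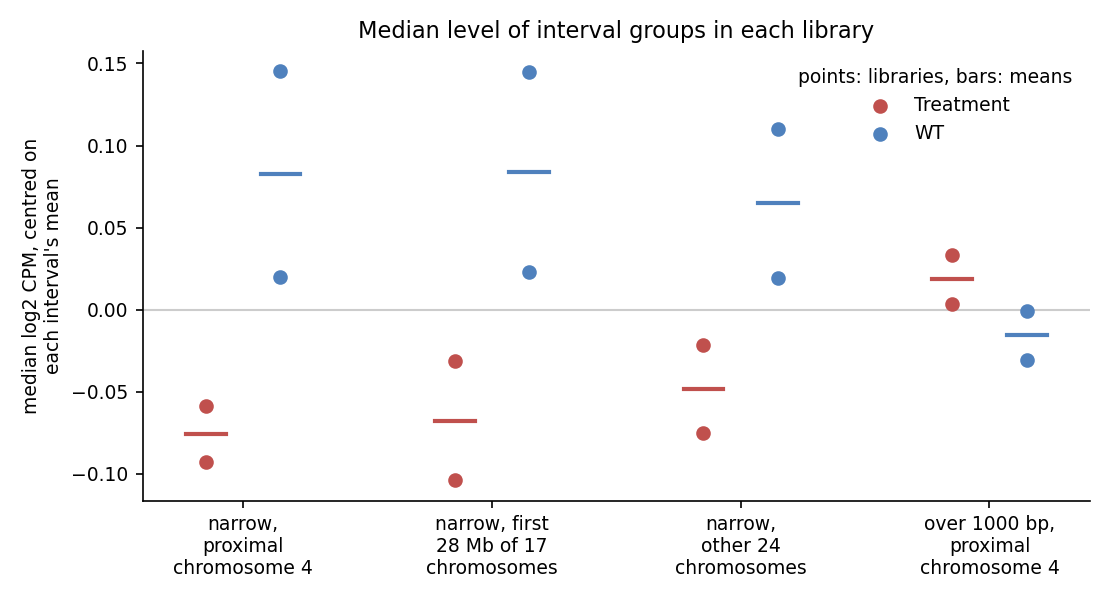
Median log2 CPM of interval groups in each library, centred on each interval's mean, with Treatment left of WT (points: libraries, bars: means of 2). Narrow members lie at -0.06 and -0.09 in Treatment and at 0.02 and 0.15 in WT, the narrow intervals of 17 other chromosomes lie at similar levels, and members over 1000 bp show the opposite order.

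The share of member reads that fell in narrow members comes from the same counts and was also lower in Treatment. It was 9.61% (95% Wilson confidence interval 9.51 to 9.71) and 9.10% (9.01 to 9.19) in Treatment replicates 1 and 2, and 9.96% (9.87 to 10.06) and 10.99% (10.90 to 11.09) in WT replicates 1 and 2. These intervals cover counting error only. Treatment averaged 9.35% ± 0.36 and WT 10.5% ± 0.73 (SD, n = 2 each), a difference of -1.13 percentage points, against 1.03 points between the WT replicates (exact two-sided permutation p = 0.333). The groups did not overlap, yet the difference between their means was little larger than the spread in WT. This difference became -0.61 points without WT replicate 2. In the 17 chromosomes with few narrow intervals, the share of reads in narrow intervals differed by -1.29 points. There the WT replicates differed by 1.28 points. Over the other 24 chromosomes together the difference was -0.89 points, and on the distal part it was 1.15 points. A lower share in Treatment was thus not particular to the members.

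The shift of narrow members was set beside that of other narrow intervals. Over the other 24 chromosomes together their median log2 fold change was -0.12, and on the distal part it was -0.17. In the first 28 Mb of the 17 chromosomes with few narrow intervals it ran from -0.21 to -0.11, and in the 7 chromosomes with many from -0.08 to 0.004. Chromosome 4 lay inside the first of these ranges, with 4 of the 17 chromosomes lower. Per library, narrow members minus narrow intervals of those 17 chromosomes gave -0.03 and 0.01 in Treatment replicates 1 and 2, and -0.003 and 0.0005 in WT replicates 1 and 2. The groups overlapped, and the difference between them was -0.01 (exact two-sided permutation p = 1). Set against narrow intervals of all other 24 chromosomes, narrow members gave -0.04 and -0.02 in Treatment replicates 1 and 2, and 0.0003 and 0.04 in WT replicates 1 and 2. There the groups did not overlap and differed by -0.05 (exact two-sided permutation p = 0.333, the smallest possible). The 17 chromosomes were grouped after their numbers were seen, and 2 libraries against 2 cannot settle whether chromosome 4 departs from the others.

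**Figure D4:**
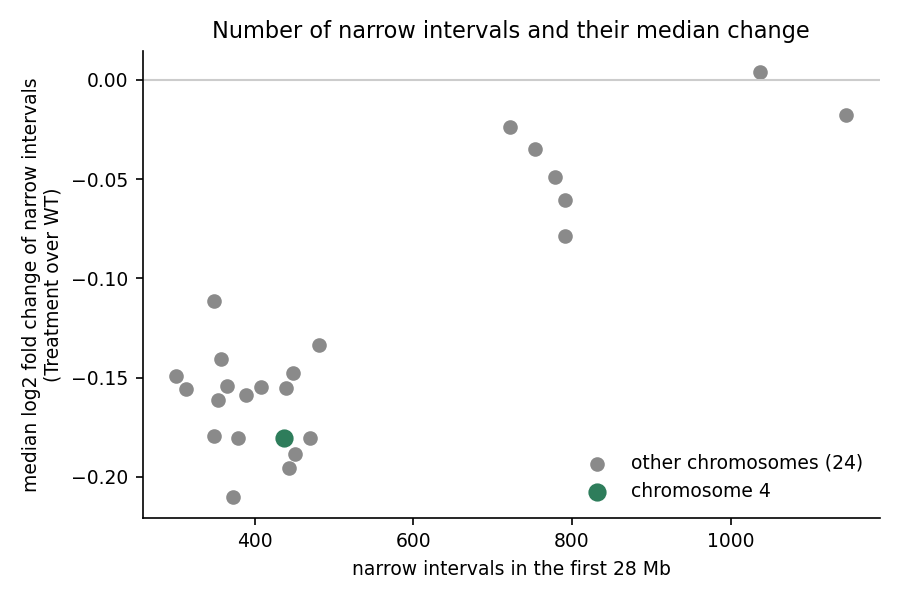
Median log2 fold change (Treatment over WT) of narrow intervals against the number of narrow intervals in the first 28 Mb of each of 25 chromosomes. Chromosome 4, with 437 narrow intervals and a median of -0.18, sits among the 17 chromosomes at -0.21 to -0.11, apart from the 7 with 722 or more.

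Within the stretch the shift was present in all 7 windows of 4 Mb, from -0.11 (16 to 20 Mb) to -0.25 (4 to 8 Mb), and the medians of members over 1000 bp ran from 0.01 to 0.09. The 28 tested narrow members of the crowded window from 11 to 12 Mb had a median of -0.20, with 20 negative and values from -0.94 to 0.90. Members up to 300 bp and of 301 to 500 bp had medians of -0.24 and -0.25, and those of 501 to 1000 bp had -0.12. Narrow members that touched no other interval had a median of -0.26, against -0.15 and -0.16 for those in contact on 1 side and on both sides. On the other 24 chromosomes the order differed, with -0.10 for no contact, -0.16 for 1 side and -0.11 for both sides. Split into 4 classes of near equal size by read density, narrow members had medians of -0.08 in the sparsest class, then -0.30, -0.17 and -0.19 in the densest. WT replicate 2 exceeded WT replicate 1 by 0.06, 0.03, 0.09 and 0.21 in the same classes, most in the densest one, and the part of this library difference in the shift was not tested.

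The 7 called members lay between 129024 and 14649158 on the chromosome, and 441 tested members lay beyond the last of them. Among these 441, edgeR calls none by the choice of the stretch. DESeq2 and limma voom called 0 as well, but on the same counts, so this is no separate evidence. At an unadjusted p under 0.05 edgeR gave 49 of them (11.1%), against 11.2% of all tested intervals by edgeR. DESeq2 gave 27 and limma voom 51, for which no share over all intervals is given. Of the 7, 3 were narrow, 2 were 1419 and 1437 bp long and 2 were 5083 and 16234 bp long. In each of the 7, both Treatment libraries lay on one side of both WT libraries. Their choice by a test on the same 4 libraries favours this. DESeq2 called 3 of them, the 1419 bp and 524 bp members that were lower and the 305 bp member that was higher.

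**Figure D5:**
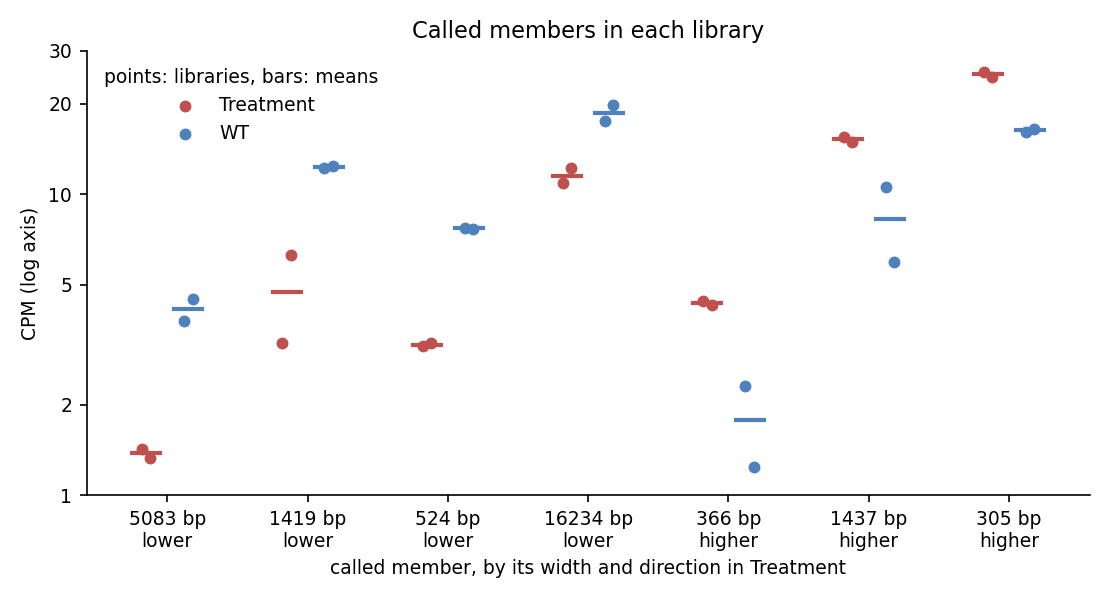
CPM on a log axis of the 7 called members in each library, with Treatment left of WT (points: libraries, bars: means of 2) and members named by width and by direction in Treatment. The groups are apart in all 7, which the choice of members by the same libraries favours. The widest spread within a group is that of Treatment in the 1419 bp member (3.20 and 6.29 CPM) and of WT in the 366 bp and 1437 bp members.

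The lower member with the best support was chr4:9619746-9621164, 1419 bp long. It had 47 and 104 reads in Treatment replicates 1 and 2 and 196 and 211 in WT replicates 1 and 2. This is 4.74 ± 2.18 CPM in Treatment and 12.3 ± 0.16 CPM in WT (SD, n = 2 each), a log2 fold change of -1.36 (SE 0.23, edgeR adjusted p 0.000151). The Treatment replicates differed from each other by about as much, in ratio, as Treatment replicate 2 differed from WT. Leaving out Treatment replicate 1 or 2 gave log2 fold changes between -0.97 and -1.95, and the interval was called in all 14 alternative fits.

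The member that abuts it on the right, chr4:9621165-9637398, was called lower as well. It had 160 and 202 reads in Treatment and 280 and 336 in WT over 16234 bp, with a log2 fold change of -0.69 (SE 0.16, edgeR adjusted p 0.0109). Its density, 15.1 reads per kb, is that of a long sparse interval, against 98.3 in the 1419 bp member. The narrow neighbour on the left, chr4:9619311-9619745, had 19 and 36 reads in Treatment and 27 and 42 in WT, and its log2 fold change of -0.25 (SE 0.40) was not called. The member that abuts this neighbour on its left, chr4:9618278-9619310, had 66 and 59 reads in Treatment and 107 and 125 in WT (log2 fold change -0.81, SE 0.25, edgeR adjusted p 0.123). Both Treatment libraries were thus below both WT libraries there as well, without a call. It was added after its values were seen. The call on the 16234 bp member was lost with DESeq2 (adjusted p 0.0910) and with TMM factors taken from narrow intervals (edgeR adjusted p 0.0541). It was also lost without WT replicate 2 (log2 fold change -0.59) and without Treatment replicate 1 (-0.61).

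The only narrow member called lower was chr4:2272673-2273196, 524 bp long. It had 46 and 53 reads in Treatment and 124 and 130 in WT, or 3.17 ± 0.05 and 7.70 ± 0.04 CPM (SD, n = 2 each), with a log2 fold change of -1.28 (SE 0.25, edgeR adjusted p 0.00220). Replicates were closer to each other here than in any other called member. The intervals that abut it did not share the change. The left one, 5032 bp long, had 69 and 81 reads in Treatment and 53 and 62 in WT (log2 fold change 0.46, SE 0.28), and the right one, 17072 bp long, had 0.08 (SE 0.15). It was called in all 14 alternative fits.

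The largest change was in a sparse interval, chr4:14644076-14649158, with 21 and 22 reads in Treatment and 61 and 76 in WT. At 8.85 reads per kb, its log2 fold change of -1.59 (SE 0.35, edgeR adjusted p 0.00760) rests on few reads. The nearest interval on its left, 1696 bp away, had 24 and 41 reads in Treatment and 65 and 76 in WT (log2 fold change -1.04, SE 0.32, adjusted p 0.122), and the one on its right, 11610 bp away, had 0.02 (SE 0.07). The call was lost with DESeq2 (adjusted p 0.0964), without WT replicate 2 (log2 fold change -1.46) and without Treatment replicate 2 (-1.53).

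Among the higher members, chr4:7527258-7527562 was the strongest site. Over 305 bp it had 374 and 407 reads in Treatment and 259 and 279 in WT, 25.02 ± 0.60 and 16.3 ± 0.22 CPM (SD, n = 2 each). The log2 fold change was 0.62 (SE 0.13, edgeR adjusted p 0.00598), the smallest of the 7. With 1081 reads per kb it was the densest of the narrow members apart from an interval of 5 bp, whose density has little meaning at that width. The abutting interval on its left, 18942 bp long, had 508 and 483 reads in Treatment and 405 and 422 in WT (log2 fold change 0.34, SE 0.12, adjusted p 0.177), and the right one had 0.02. Without Treatment replicate 1 or 2 the adjusted p was 0.0727 and 0.0531.

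The other 2 higher members varied more between WT libraries. The member chr4:129024-130460, 1437 bp long, had 228 and 247 reads in Treatment and 170 and 101 in WT. Its log2 fold change was 0.88 (SE 0.19, edgeR adjusted p 0.00816). It fell to 0.53 without WT replicate 2, where the call was lost, and DESeq2 did not call it (adjusted p 0.104). The narrow member chr4:8708630-8708995, 366 bp long, had 65 and 71 reads in Treatment and 37 and 21 in WT. Its log2 fold change was 1.30 (SE 0.34, edgeR adjusted p 0.0389). The call was lost with DESeq2 (adjusted p 0.343), without WT replicate 2 (log2 fold change 0.92) and without Treatment replicate 1 or 2 (1.28 and 1.32). In both, the intervals that abut them were not called and had log2 fold changes from -0.22 to 0.19.

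Just past the threshold were 3 narrow members, all lower in Treatment in their counts. The interval chr4:7690355-7690876 had 52 and 52 reads in Treatment and 117 and 100 in WT (log2 fold change -0.98, SE 0.26, edgeR adjusted p 0.0511). The interval chr4:6316213-6316917 had 64 and 70 reads in Treatment and 150 and 105 in WT, and chr4:14872508-14872778 had 27 and 32 in Treatment and 63 and 72 in WT, with adjusted p of 0.0806 and 0.0882 by edgeR. They were chosen for their p-values and are given as a description.

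The densest narrow sites that were not called, apart from the interval of 5 bp, had log2 fold changes from -0.30 to -0.13. At chr4:4763723-4764130 there were 307 and 383 reads in Treatment and 443 and 390 in WT, which after scaling overlap (log2 fold change -0.20, SE 0.13). At chr4:9836104-9836760 there were 415 and 408 reads in Treatment and 488 and 584 in WT (log2 fold change -0.30, SE 0.11, edgeR adjusted p 0.268). At chr4:20567-21142, near the chromosome start, there were 374 and 333 in Treatment and 362 and 458 in WT (log2 fold change -0.13, SE 0.13). In the first and the last of these sites the libraries of the groups overlapped, and in the other both Treatment libraries were lower.

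The members with the highest mean CPM were long intervals in which differences could be measured more finely. The highest, chr4:15207433-15420452, had 7555 and 8769 reads in Treatment and 8642 and 8419 in WT, 522 ± 11.3 and 518 ± 29.7 CPM (SD, n = 2 each), with a log2 fold change of 0.01 (SE 0.05). The other 4 of the 5 highest, chr4:22755465-23083187, chr4:21129752-21315399, chr4:13035870-13255140 and chr4:21983801-22207873, had log2 fold changes from -0.10 to 0.01, each with an SE of 0.05. The first of these is also the widest member, at 327723 bp. The next widest, chr4:27626869-27897315 and chr4:26496489-26766355, had log2 fold changes of 0.02 (SE 0.06) and 0.03 (SE 0.07), at 13.2 and 5.50 reads per kb. None of these 7 intervals was called. At chr4:21129752-21315399 both Treatment libraries (311 and 296 CPM) lay below both WT libraries (336 and 315 CPM), with an edgeR adjusted p of 0.469. Such an order was found in 14.8% of all tested intervals over 1000 bp. In the others of the 7 the libraries of the groups overlapped.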

How the data were processed

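Bulk ATAC-seq was measured in 2 Treatment and 2 WT libraries. Adapters were trimmed by the authors (Trim Galore), and alignment to GRCz11 (danRer11) was with Bowtie2. The authors removed mitochondrial reads, kept unique alignments and called peaks with Genrich for each condition across replicates. How peak sets were joined, how reads were counted and whether duplicates were removed are not given in the sources used here. Unique mapping leaves out reads from repeats. The authors deposited raw counts per interval, with 1 column per library; columns not used numbered 0. Starts were raised by 1 bp to count from 1.

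All intervals were filtered with filterByExpr (minimum count 10), scaled by TMM and tested for group alone with edgeR 4.0.16 under R 4.3.3 (glmQLFit, glmQLFTest), and p-values were adjusted over all tested intervals. The SE is the log2 fold change divided by the square root of F. CPM were TMM-scaled, and log2 CPM used a prior count of 2. The median tested member had 138.5 reads per library (counting error 8.50%), and the median tested narrow member 77.5 (11.4%). Of 38 members not tested, 27 were narrow, and 11 had 0 reads. Single values were compared by exact permutation tests.

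Members and lists were chosen with earlier results of these data known. Named intervals are the called members, up to 10 in each direction, the 5 densest narrow members, the 5 of highest mean CPM, the 3 widest and the 3 longest stretches without a narrow member; the 3 near the threshold and 1 further neighbour were added after their values were seen. Marker genes could not be placed, since the gene table used for names is on another build. Alternatives were DESeq2 1.42.0, limma 3.58.1 with voom, other scalings, filters and thresholds, a replicate block, leaving out each library, and other limits of position and width.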

Additional observations from a re-analysis of the deposited data

How the results depend on the processing

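With 2 libraries per group, counts of called members were small and moved easily. Shares over all intervals are given for the main fit only. For the refits, the counts below therefore do not tell whether calls moved in the members or in the whole series. Other limits of position and width and the adjusted p under 0.1 select from the main fit. Moving the limit to 32 Mb takes in the window from 28 to 32 Mb, whose 10 called intervals are not members. For the other widths and that p, no share over all intervals is given either. Against 4 lower and 3 higher members, DESeq2's Wald test gave 2 and 1, an adjusted p under 0.1 gave 7 lower, TMM factors of narrow intervals alone gave 5 higher, and a limit of 32 Mb in place of 28 Mb gave 12 and 5. Without 1 of the libraries, 3 to 13 were lower and 1 to 6 higher. Against 1 lower narrow member, upper quartile scaling, no filter, the limit of 32 Mb and a width up to 2000 bp each gave 2. An adjusted p under 0.1 gave 4, and a width of at most 500 bp gave 0, also by DESeq2 and limma voom. By edgeR, 29 of the 186 members up to 500 bp with a negative log2 fold change had an unadjusted p under 0.05. No share over all intervals of that width is given, so this count cannot be read against one. Against 2 higher narrow members, DESeq2 and a mean of at least 50 counts each gave 1, and leaving out 1 library gave 0 to 3 (0 without Treatment replicate 1 and 0 without Treatment replicate 2, with 12 at an unadjusted p under 0.05 in each). With the replicate block there were 5 lower and 3 higher members, and 2 and 2 among narrow ones. The labels do not say that replicate numbers pair libraries, and the differences between Treatment replicates and between WT replicates had a correlation of -0.06 across intervals. With 1 library left in a group, its variance is taken from the other group's pair.

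The median log2 fold change of narrow members was negative in all alternatives, at -0.066 with TMM factors of narrow intervals alone, which by construction take out a shift common to narrow intervals, at -0.25 with a width of at most 500 bp, and from -0.23 to -0.092 without 1 library, the last without WT replicate 2. That scaling moved the median of all intervals to 0.11. The share of all counts in members was higher in Treatment by 0.014 percentage points and differed by -0.0053 points with the limit of 32 Mb. A width of at most 500 bp gave 9.68 narrow members per Mb and a median gap of 35659 bp.

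Over 14 refits, the 7 called members gave 96 pairs of member and refit, which all kept the direction, and 81 of them stayed called. The refits reuse the counts by which these members were called, so a kept direction was favoured from the start. Log2 fold changes near 0 changed sign in members that were not called. With upper quartile scaling, chr4:15207433-15420452 had -0.0082, chr4:22755465-23083187 -0.0063, chr4:21983801-22207873 -0.012 and chr4:27626869-27897315 -0.0031. With TMM factors of narrow intervals, chr4:21129752-21315399 had 0.0086 and chr4:13035870-13255140 0.097. Without 1 library, the values ran from -0.30 to 0.036 at chr4:20567-21142, from -0.041 to 0.074 at chr4:15207433-15420452, from -0.056 to 0.094 at chr4:22755465-23083187, from -0.040 to 0.017 at chr4:13035870-13255140 and from -0.048 to 0.073 at chr4:21983801-22207873.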
